A study of Mus musculus with 12 samples.

Results

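10 members of the TRIM family that are linked to interferon responses (Trim12a, Trim12c, Trim14, Trim21, Trim25, Trim26, Trim30a, Trim30b, Trim30d and Trim34a) were followed in bone marrow-derived macrophages of control and Dicer KO mice. They were taken as the rows whose Ensembl identifier carries 1 of these 10 symbols. All 10 were found among 46078 gene rows, and all 10 passed the filter on low counts that left 13837 genes for testing. RNA was sequenced from 12 libraries in 4 groups of 3, and cells given vehicle alone are called resting. Both genotypes were male C57BL/6 mice lacking Apoe, and the titles give 1 LysM-Cre allele (LysMcre/+) to both, with Dicer fl/fl in the Dicer KO mice and Dicer +/+ in their littermate controls. LysM-Cre places Cre recombinase in the Lyz2 locus, which is active in myeloid cells. Marrow cells were matured over 7 days with conditioned medium of L929 cells, a source of macrophage growth factor. Every culture then had diluted ethanol overnight, followed for 6 h by buffered saline (vehicle) or by the TLR4 ligand lipopolysaccharide (LPS), which comes from bacterial outer membranes, at a concentration the labels give as 100 ng/ul.

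TRIM proteins share a tripartite motif of a RING domain, B-box domains and a coiled coil, and many work as ubiquitin ligases. A subset is itself induced by interferon through factors that include STAT2 and IRF9 and bind a promoter sequence called the interferon-stimulated response element (ISRE). In macrophages these proteins are known for sensing or restricting viruses and for raising or restraining the signals that lead from pattern receptors to interferon.

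The targeted gene, Dicer1, had 43.7 ± 1.44 CPM (read counts scaled to library size; SD, n = 3) in vehicle-treated controls and 19.7 ± 0.369 CPM in their Dicer KO counterparts, which was 2.21-fold lower (adjusted p = 1.47e-10, edgeR). With LPS it was 49.4 ± 2.84 against 15.5 ± 1.10 CPM, 3.18-fold lower (adjusted p = 2.14e-12, edgeR). Lyz2 also separated the genotypes, at 5714 ± 335 CPM in resting control and 14.1 ± 1.49 in resting Dicer KO cells, although the titles give both genotypes the same LysM-Cre allele and another label field calls the controls wildtype. Differences tied to Dicer1 and to the Lyz2 locus therefore cannot be told apart here. Libraries held 16172600 to 18886948 counts in genes. All 9 macrophage markers passed the filter, and their summed level, with Lyz2 included, lay between 12790 and 14010 CPM in control vehicle, between 12590 and 13150 in control LPS, between 7010 and 7868 in Dicer KO vehicle and between 9336 and 9535 in Dicer KO LPS. Without Lyz2 the other 8 summed to 7419 to 8114, 8698 to 8872, 6997 to 7853 and 9319 to 9516 CPM in the same order. Of the 7 dendritic cell markers 2 passed. The 7 summed to 1.47 to 1.67 CPM in resting controls and 2.58 to 4.61 in resting Dicer KO. With LPS they summed to 6.78 to 8.52 in controls and 16.7 to 17.8 in Dicer KO. Most of the TRIM genes shared this order of groups. The rise was mainly that of Ccr7 (means of 0.355 CPM in resting controls and 9.07 in Dicer KO LPS) and Xcr1 (0.301 and 7.14). Xcr1 overlapped between resting Dicer KO and control LPS. Siglech, Flt3, Zbtb46, Clec9a and Cd209a stayed under 1 CPM in every library, and their means did not follow this order. The part of dendritic cells in the results was not tested. The markers of T and NK cells (0 of 6 passed, Ncr1 at 0) and of erythroid cells (0 of 4, with Hba-a1 and Hbb-bs at 0) summed to under 1 CPM in every library, and B cell markers (1 of 5) to at most 5.06. Neutrophil markers (7 of 8) summed to 93.8 to 179 CPM over all groups, and stromal markers (1 of 4) to 0.618 to 1.21 in vehicle and 22.7 to 36.7 with LPS. The stromal rise was that of Pdgfrb alone, from a mean of 0.626 to 23.2 CPM in control and from 0.426 to 34.5 in Dicer KO. Col1a1, Col1a2 and Col3a1 stayed under 1 CPM in every library. In bulk RNA, fewer cells of a type and less RNA per cell cannot be told apart. Replicate 3 of control vehicle and replicate 2 of Dicer KO vehicle differed most from the rest of their groups, and results that rest on them are given with and without them. The labels do not say whether replicates were separate mice, so p-values measure only the spread between these samples, which may be technical.

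Promoter windows are shown first, because the genes are known as interferon targets. RefSeq windows on GRCm38.p6, which run from 250 bases before to 50 bases after a gene's start, were found for 9 of the 10 genes (all but Trim14), with a second start for Trim30a. Both strands were searched for the ISRE core, which is GAAA and again GAAA with 2 bases of any kind between, and overlapping matches were counted. It was found in 7 of the 9 genes, against 3.44% of 32851 windows of the same length. The gamma-interferon-activated core TTCNNNGAA was in 0 of 9 (8.3% of all windows), and the kappaB core (GGGA, any 1 base, TTTCC) in 0 of 9 (0.411%). A match is only a description of letters. The 30 bases around the matches are printed 5′ to 3′ on the strand of the gene with the match in capitals, so that TTTC runs mark a match read on the opposite strand.
Trim21, chr7:102565447-102565476, minus strand: ctgagagGAAACTGAAAGTGAAAtttggac
Trim26, chr17:36836979-36837008, plus strand: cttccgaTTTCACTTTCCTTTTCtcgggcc
Trim34a, chr7:104244457-104244486, plus strand: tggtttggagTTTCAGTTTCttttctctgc
Trim12a, chr7:104315466-104315495, minus strand: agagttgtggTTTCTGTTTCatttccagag
Trim12c, chr7:104353359-104353388, minus strand: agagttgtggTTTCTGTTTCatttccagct
Trim30a, chr7:104465210-104465239, minus strand: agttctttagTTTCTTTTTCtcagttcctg
Trim30a second start, chr7:104446104-104446133, minus strand: ttgtttttagTTTCTTTTTCtcagttcctg
Trim30d, chr7:104507871-104507900, minus strand: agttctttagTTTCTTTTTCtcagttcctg
Trim21 and Trim26 each held 2 overlapping matches, and the others 1. The 30 bases of Trim30a (first start) and Trim30d were identical at 30 of 30 positions, and those of Trim12a and Trim12c at 28 of 30. The matches began between 160 bases before the start (Trim26) and 19 bases after it (the second match of Trim21). The windows of Trim25 and Trim30b held no match, and for Trim30b the RefSeq start lies inside the longer gene model of GENCODE. For contrast, the 250 bases before the start are printed for Trim30a, which has a match, and for Trim25, which has none in these letters.
Trim30a, chr7:104465194-104465443, minus strand: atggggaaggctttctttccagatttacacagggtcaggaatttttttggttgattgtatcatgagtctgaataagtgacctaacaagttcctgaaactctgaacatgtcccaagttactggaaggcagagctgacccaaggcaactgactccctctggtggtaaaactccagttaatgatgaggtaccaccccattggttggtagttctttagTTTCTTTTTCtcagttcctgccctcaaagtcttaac
Trim25, chr11:88999153-88999402, plus strand: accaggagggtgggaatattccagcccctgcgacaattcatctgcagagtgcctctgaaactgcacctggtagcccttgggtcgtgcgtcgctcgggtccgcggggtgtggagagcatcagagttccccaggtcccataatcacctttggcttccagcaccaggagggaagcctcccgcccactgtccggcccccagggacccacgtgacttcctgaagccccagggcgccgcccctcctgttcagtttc

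**Figure D1:**
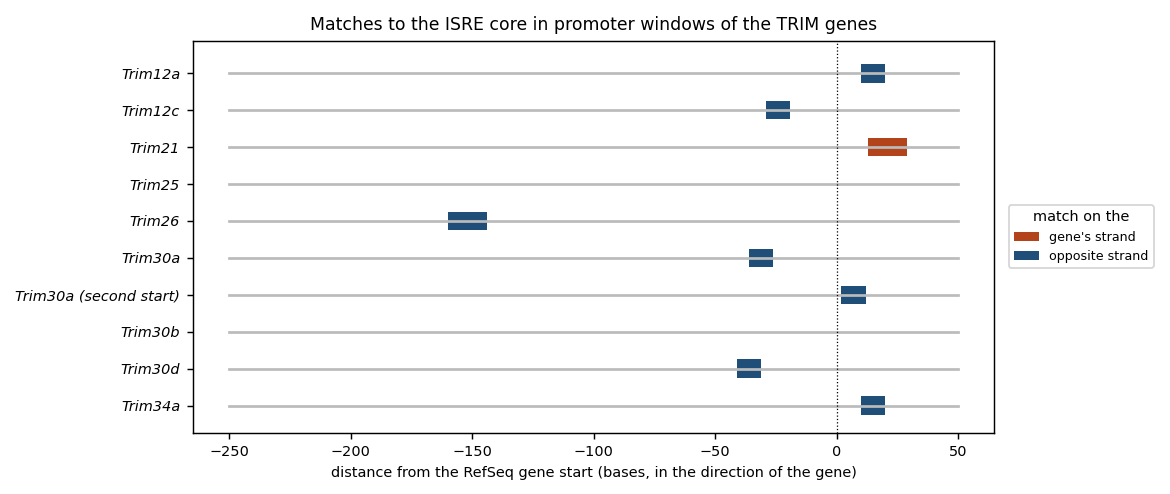
Positions of ISRE core matches (either strand) in the RefSeq promoter windows of the 9 genes that have one, as distance from the gene's start in bases. 7 of the 9 genes hold a match, and Trim25 and Trim30b hold none.

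At rest, in vehicle, 9 of the 10 TRIM genes were higher in Dicer KO than in control macrophages, and Trim25 alone was not called. The rise ran from 1.5-fold for Trim26 to 5.76-fold for Trim30b. Of all 13837 genes, 25% were called higher in this comparison, 21.2% lower and 46.2% in either direction (edgeR's quasi-likelihood test, adjusted p under 0.05 after Benjamini-Hochberg adjustment over all genes). The median log2 difference of the 10 genes was 1.12, against 0.00768 over all genes. Their summed level lay between 853 and 942 CPM in controls and between 1272 and 1608 CPM in Dicer KO, without overlap. With LPS all 10 were higher in Dicer KO, against 28.8% of all genes higher, 27% lower and 55.8% in either direction. The median log2 difference there was 0.66 against −0.03 over all genes, and the sums lay between 2359 and 2582 CPM in controls and between 4132 and 4177 CPM in Dicer KO. When library totals replaced the TMM factors that set the typical gene at no change, 9 genes remained called in vehicle and 7 with LPS, and the median of all genes moved to −0.118 and −0.378.

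**Figure D2:**
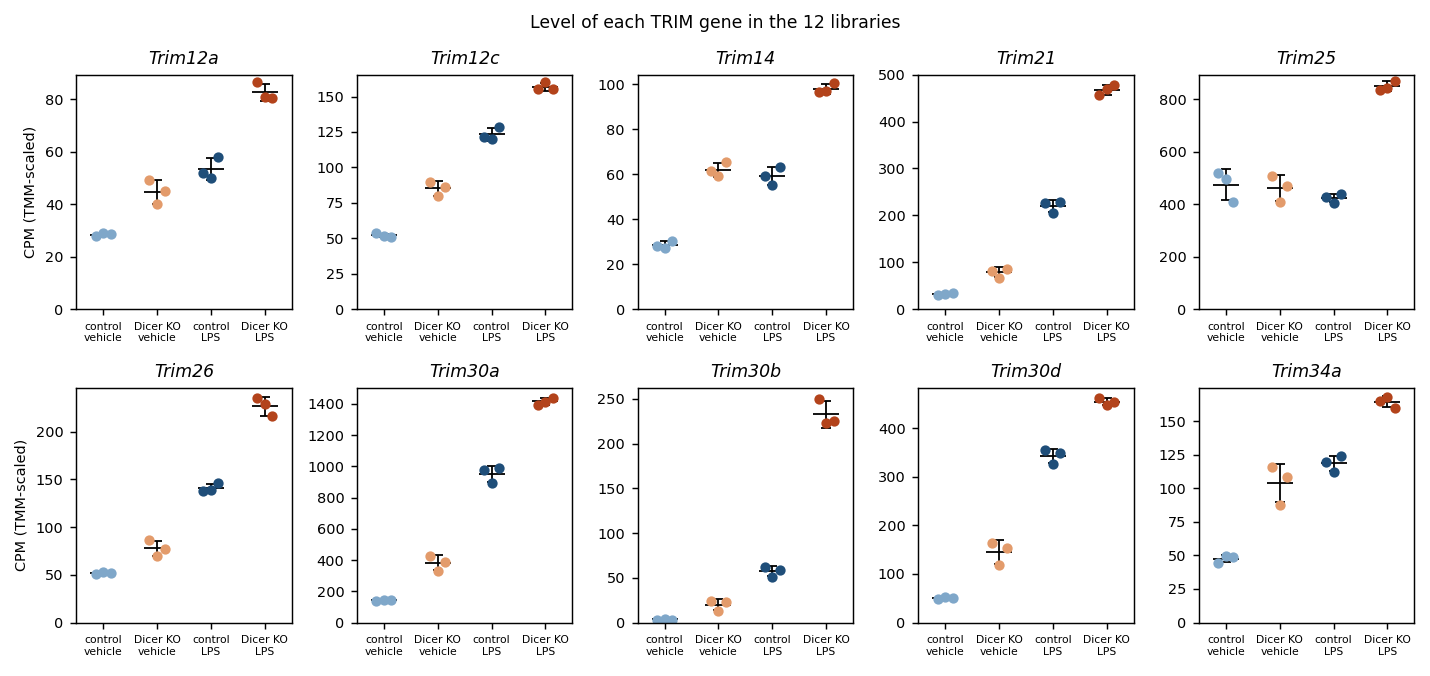
Level of each TRIM gene in each of the 12 libraries, in CPM on a linear axis, by group. Points are libraries and bars are group means with SD, and Dicer KO LPS is the highest group for all 10 genes.

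After LPS most of the set rose in both genotypes. In control cells 9 of the 10 genes rose after 6 h, from 1.88-fold for Trim12a to 16.5-fold for Trim30b, against 38% of all genes called higher, 41.1% lower and 79.1% in either direction. In Dicer KO cells all 10 rose, from 1.58-fold for Trim14 and Trim34a to 11.7-fold for Trim30b, against 37.4% of all genes higher, 42.7% lower and 80.1% in either direction. The median log2 response of the set was 1.38 in control (−0.06 over all genes) and 1.21 in Dicer KO (−0.10 over all genes). With library totals in place of TMM only 6 of the 10 remained called in Dicer KO, where the median of all genes moved to −0.848. The log2 response differed between genotypes for 6 of the 10 (interaction term), 1 larger and 5 smaller in Dicer KO. Such a response is a ratio to the vehicle level of the same genotype. That level was higher in Dicer KO for each of the 5, so a smaller ratio need not be a smaller gain in CPM. Over all genes 33.7% were called in the interaction, 14.9% larger and 18.8% smaller, and the median was −0.04 against −0.38 for the set. The interaction uses the same 4 groups as the other comparisons and is no separate evidence on them.

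Trim25 encodes a RING ubiquitin ligase known for modifying the viral RNA sensor RIG-I (Ddx58) and for joining the ubiquitin-like protein ISG15 to targets. It lies at chr11:88999376-89020293 on the plus strand (ENSMUSG00000000275, GRCm38). At rest its levels were 519, 496 and 406 CPM in controls and 509, 407 and 468 CPM in Dicer KO. These groups overlapped, with a log2 difference of −0.04 ± 0.09 (SE), a 95% interval of −0.22 to 0.14 and an adjusted p of 0.734 (edgeR). The sign turned without control vehicle replicate 1 (0.03) and without Dicer KO vehicle replicate 2 (0.05). With LPS it was 427, 406 and 438 CPM in control and 836, 842 and 870 CPM in Dicer KO. Every Dicer KO LPS library thus lay far above all 9 others, and the difference of 1.00 ± 0.09 was called (2.01-fold, adjusted p = 4.16e-08, edgeR). LPS left the control groups overlapping, at −0.16 ± 0.09 with an interval of −0.34 to 0.02 (adjusted p = 0.0903, edgeR). Without control vehicle replicate 3, the lowest of its group, that value was −0.26 and was called lower (adjusted p = 0.00174, edgeR). It was also called lower with library totals (−0.69), without a low-count filter (−0.21) and without Dicer KO vehicle replicate 2 (−0.16, adjusted p = 0.0473, edgeR). The same held without both libraries that stood apart (−0.26, adjusted p = 1.24e-05, edgeR). In Dicer KO the gene rose by 0.88 ± 0.09 with LPS (adjusted p = 5.20e-08, edgeR), a rise not called with library totals (0.13, adjusted p = 0.152). The LPS responses differed by 1.04 ± 0.12 (adjusted p = 7.43e-06, edgeR), which made Trim25 the single gene of the set whose response was called larger in Dicer KO.

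Trim14 lacks the RING domain and is known as an adaptor of MAVS at mitochondria and as a protector of the DNA sensor cGAS. It lies at chr4:46493781-46536141 on the minus strand (ENSMUSG00000039853). Its levels were 28.0, 27.4 and 30.3 CPM in resting controls, 61.6, 59.3 and 65.4 in resting Dicer KO cells, 59.0, 55.2 and 63.3 in control LPS, and 96.3, 96.9 and 101 in Dicer KO LPS. Resting Dicer KO cells thus overlapped LPS-treated control cells, with a mean 104.9% of theirs. The genotype difference was 1.12 ± 0.06 in vehicle (2.17-fold, adjusted p = 1.41e-10) and 0.73 ± 0.06 with LPS (adjusted p = 8.82e-09, both edgeR). LPS raised it by 1.05 in control and 0.66 in Dicer KO, and the latter turned to −0.09 with library totals. The response was smaller in Dicer KO by 0.39 ± 0.09 on the log2 scale (interaction −0.39, adjusted p = 0.00170, edgeR). Exons on the opposite strand overlap 38% of its exon length, and the strand setting of the counting is not given in the sources used here. Of those genes Nans moved against Trim14 with LPS (log2 −1.12 in control and −1.47 in Dicer KO) and did not pass the test by genotype in vehicle (0.12, adjusted p = 0.186, edgeR), but was lower in Dicer KO with LPS (−0.23, adjusted p = 0.0386, edgeR). The overlapping Gm16731 moved with Trim14, at 0.73 and 0.93 by genotype in vehicle and LPS. Of the 2 flanking genes, Coro2a was higher in Dicer KO (0.69 in vehicle and 1.09 with LPS) and Anp32b was lower (−0.27 and −0.88). Their part in the Trim14 result was not tested.

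Trim21 encodes a ubiquitin ligase that is also a cytosolic receptor for antibody bound to viruses. It lies at chr7:102557921-102565486 on the minus strand (ENSMUSG00000030966), outside the cluster of TRIM genes on the same chromosome. Its levels were 30.2, 33.4 and 35.1 CPM in resting controls and 82.1, 66.4 and 86.8 CPM in resting Dicer KO cells, which did not overlap (1.25 ± 0.09, 2.39-fold, adjusted p = 6.25e-09, edgeR). With LPS they were 227, 206 and 229 CPM in control and 457, 468 and 477 in Dicer KO, again apart (1.08 ± 0.08, adjusted p = 5.19e-09, edgeR). Trim21 rose 6.71-fold with LPS in control and 5.95-fold in Dicer KO. The responses differed by −0.17 ± 0.12, with a 95% interval of −0.42 to 0.07 (adjusted p = 0.277, edgeR). That difference was called without Dicer KO vehicle replicate 2 (−0.28, adjusted p = 0.0176), without both libraries that stood apart (−0.33, adjusted p = 0.00178) and when library totals set the scale (−0.40, adjusted p = 0.00635, all edgeR).

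Trim26 is a RING ligase encoded within the major histocompatibility complex region and known for acting on the interferon factor IRF3. It lies at chr17:36837134-36859398 on the plus strand (ENSMUSG00000024457). Its levels were 50.5, 53.1 and 52.0 CPM in resting controls, 85.9, 69.6 and 77.3 in resting Dicer KO cells, 138, 139 and 146 in control LPS, and 235, 229 and 216 in Dicer KO LPS. No pair of groups overlapped, and the levels stepped up by genotype and again by treatment. By genotype it differed by 0.58 ± 0.07 in vehicle (adjusted p = 1.08e-06) and 0.69 ± 0.06 with LPS (adjusted p = 3.35e-08, both edgeR). LPS raised it 2.72-fold in control and 2.92-fold in Dicer KO, and the responses differed by 0.10 with an interval of −0.09 to 0.29 (adjusted p = 0.411, edgeR), which turned to −0.12 with library totals.

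The 3 Trim30 paralogs of the set lie close together on the minus strand of chromosome 7, with Trim30c between Trim30b and Trim30a. Trim30a, known for restraining TLR signals through loss of the adaptors TAB2 and TAB3, lies at chr7:104409025-104465193 (ENSMUSG00000030921). Its levels were 137, 143 and 147 CPM in resting controls, 427, 331 and 391 in resting Dicer KO cells, 975, 893 and 988 in control LPS, and 1395, 1415 and 1438 in Dicer KO LPS. The 4 groups did not overlap. The genotype difference was 1.43 ± 0.08 in vehicle (2.69-fold, adjusted p = 9.93e-11) and 0.57 ± 0.07 with LPS (1.49-fold, adjusted p = 2.55e-06, both edgeR). LPS raised Trim30a 6.7-fold in control and 3.7-fold in Dicer KO, a smaller response on the log2 scale (interaction −0.86 ± 0.10, adjusted p = 7.09e-06, edgeR).

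Trim30d, a close paralog at chr7:104470014-104507849 (ENSMUSG00000057596), had 48.2, 53.3 and 51.0 CPM in resting controls, 163, 118 and 154 in resting Dicer KO cells, 355, 327 and 348 in control LPS, and 463, 449 and 454 in Dicer KO LPS. It followed Trim30a in the order and separation of the groups. The genotype difference was 1.51 ± 0.09 in vehicle (adjusted p = 5.24e-09) and 0.41 ± 0.09 with LPS (adjusted p = 0.000924, both edgeR), and the latter lost its call with library totals (0.05, adjusted p = 0.57). On the log2 scale its LPS response fell short in Dicer KO by the widest margin of the set, −1.11 ± 0.13 (adjusted p = 1.01e-05, edgeR). Its mean went from 50.8 to 343 CPM in control and from 145 to 455 CPM in Dicer KO. Of the 50-base stretches of its exons, 7.49% also occur in other genes, mainly Trim30a, and 5.98% of those of Trim30a occur in Trim30d, so a small share of reads could be lost or split between them.

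Trim30b, the remaining paralog, lies at chr7:104355382-104369884 (ENSMUSG00000052749). It was the weakest gene in control vehicle, at 3.28, 4.28 and 2.80 CPM, and reached 23.9, 12.8 and 22.8 in Dicer KO vehicle. With LPS it was 61.9, 51.0 and 58.6 CPM in control and 250.1, 223 and 225 in Dicer KO. The groups did not overlap, and the differences by genotype were the largest of the set, at 2.53 ± 0.26 in vehicle (adjusted p = 3.47e-05) and 2.03 ± 0.17 with LPS (4.07-fold, adjusted p = 4.45e-06, both edgeR). Its LPS response was 4.04 in control and 3.54 in Dicer KO, and the difference of −0.50 had an interval of −1.23 to 0.23 (adjusted p = 0.282, edgeR). Without Dicer KO vehicle replicate 2 it was −0.73 and called (adjusted p = 0.00133), as it was without both libraries that stood apart (−0.60, adjusted p = 0.00248, both edgeR).

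Trim12a and Trim12c are mouse relatives of human TRIM5, a restriction factor that binds retroviral capsids. Trim12a, at chr7:104299894-104315466 on the minus strand (ENSMUSG00000066258), had 27.7, 29.2 and 28.5 CPM in resting controls, 49.2, 40.2 and 44.9 in resting Dicer KO cells, 52.1, 50.1 and 58.1 in control LPS, and 86.5, 80.9 and 80.6 in Dicer KO LPS. The genotype difference was 0.65 ± 0.07 in vehicle and 0.63 ± 0.07 with LPS, and the LPS response was 0.91 in control and 0.88 in Dicer KO (all called). The responses differed by −0.02 with an interval of −0.24 to 0.19 (adjusted p = 0.879, edgeR), a value that turned sign under 4 alternatives, and with library totals the LPS rise in Dicer KO was 0.14 and not called (adjusted p = 0.0736). Trim12c, at chr7:104338754-104353362 (minus strand, ENSMUSG00000057143), had 53.4, 51.5 and 51.1 CPM in resting controls, 89.8, 79.7 and 86.5 in resting Dicer KO cells, 122, 120 and 129 in control LPS, and 155, 160 and 155 in Dicer KO LPS. The groups did not overlap. By genotype it differed by 0.71 ± 0.05 in vehicle (adjusted p = 6.02e-09) and 0.35 ± 0.05 with LPS (adjusted p = 1.54e-05, both edgeR), the smallest of the set, which turned to −0.01 with library totals. Its log2 response to LPS was smaller in Dicer KO (interaction −0.37 ± 0.07, adjusted p = 0.000814, edgeR). Of its 50-base exon stretches 33% also occur elsewhere, mainly in Trim5 and Trim12a, and 10.4% of those of Trim12a do, so counts within this group of copies are uncertain.

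Trim34a, the relative of human TRIM34, lies at chr7:104244457-104262234 on the plus strand (ENSMUSG00000056144). Its levels were 44.5, 49.4 and 48.6 CPM in resting controls, 116, 87.9 and 108 in resting Dicer KO cells, 120, 112 and 124 in control LPS, and 165, 168 and 160 in Dicer KO LPS. Resting Dicer KO cells again overlapped LPS-treated control cells, at 87.6% of their mean. The genotype difference was 1.13 ± 0.08 in vehicle (adjusted p = 8.83e-09) and 0.47 ± 0.08 with LPS (adjusted p = 6.54e-05, both edgeR), and the latter was 0.12 and not called with library totals (adjusted p = 0.161). LPS raised it by 1.32 in control and 0.66 in Dicer KO, where library totals gave −0.09, and the responses differed by −0.66 ± 0.11 (adjusted p = 0.000238, edgeR). Of its 50-base exon stretches 39.8% also occur in Trim34b, and 23.5% of its exon length is overlapped on the opposite strand by Gm47248.

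**Figure D3:**
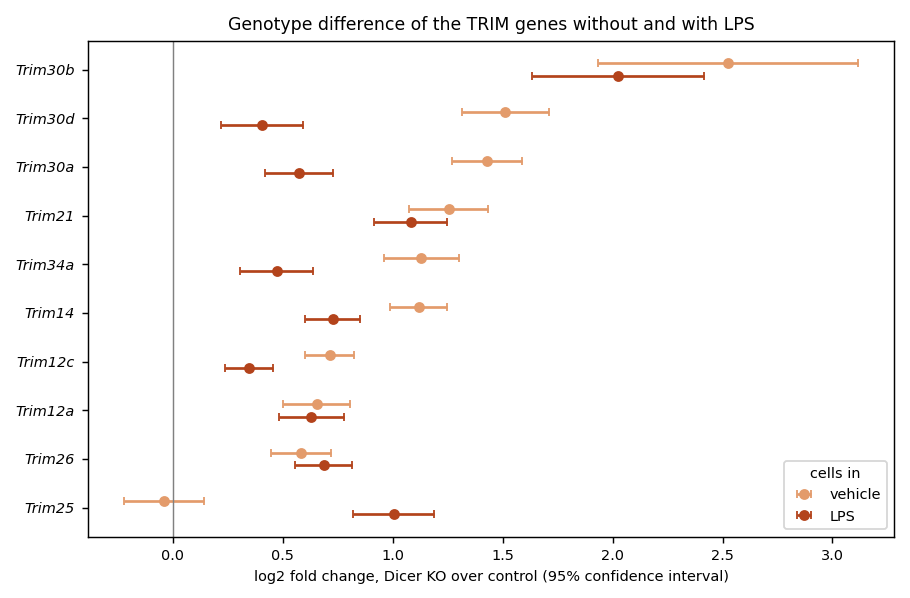
Log2 difference of Dicer KO against control for each TRIM gene, in vehicle and with LPS, with 95% intervals of the edgeR model. The vehicle interval of Trim25 crosses 0, and all 19 others lie above it.

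The resting level in Dicer KO cells can be set beside the LPS level in control cells. Trim25 (108.9%), Trim14 (104.9%) and Trim34a (87.6%) overlapped between those groups. Trim25 was called neither by genotype in vehicle nor with LPS in control. Its mean was already 474 CPM in resting controls, beside 423 in control LPS. The other 7 lay below, from 83.8% for Trim12a and 69.1% for Trim12c to 35.5% for Trim21 and 34.7% for Trim30b. Within Dicer KO vehicle, replicate 2 was the lowest library for 10 of the 10 genes and replicate 1 the highest for 8, so the 10 genes shared their lowest library there. The genotype counts in vehicle and with LPS, 9 and 10, were the same without that library and control vehicle replicate 3, and the interaction count went from 6 to 8.

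**Figure D4:**
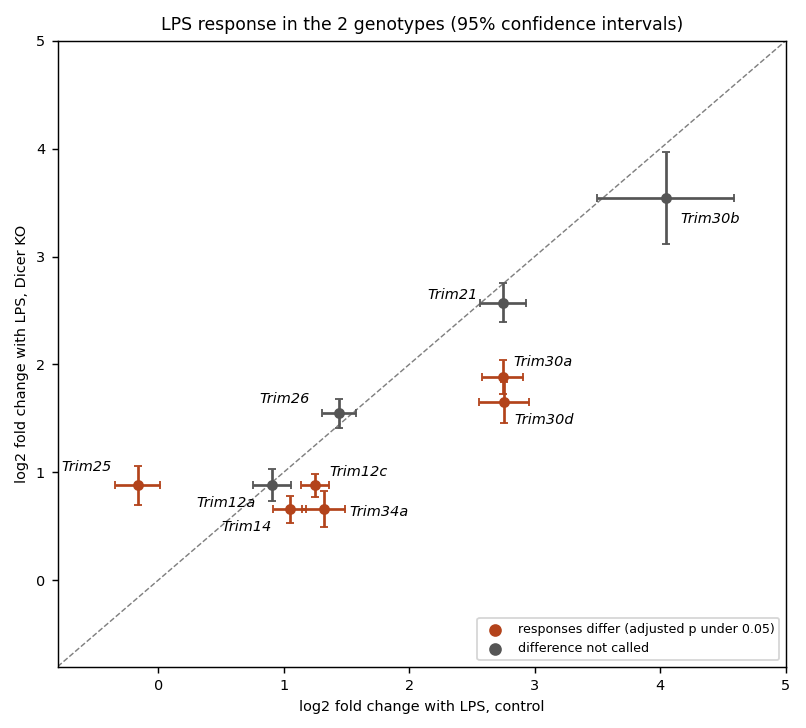
Log2 response to LPS in control (x axis) and in Dicer KO (y axis) for each TRIM gene, with the line of equal response. Trim25 lies above the line, and Trim30a, Trim30d, Trim34a, Trim14 and Trim12c lie below it.

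Divided by exon length, the order of the genes depended on the condition. In control vehicle Trim25 was the most abundant at 82.4 CPM per kb, followed by Trim30a at 34.6 and Trim34a at 18.3, and Trim30b was the lowest at 0.459. Trim12c and Trim30d were the only neighbours in that order whose libraries overlapped. In Dicer KO vehicle Trim30a (93.2) and Trim25 (80.2) overlapped at the top, as did Trim34a with Trim30d and Trim12c with Trim21 below them. In control LPS Trim30a led at 231.6 CPM per kb, ahead of Trim30d (91.3) and Trim25 (73.6), and no neighbours overlapped. In Dicer KO LPS the order was Trim30a (344), Trim25 (148), Trim21 (126) and Trim30d (121), of which the last pair overlapped, and so did Trim26 and Trim30b further down, with Trim12a the lowest at 14.3. In terms of summed CPM, Trim25 made up 51.9% of the set in control vehicle and 17.0% in control LPS, and Trim30a went from 15.7% to 38.2%. In Dicer KO the shares were 31.6% and 20.5% for Trim25 and 26.2% and 34.1% for Trim30a.

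Of the 10 genes, 6 lie in a block of 10 TRIM genes that spans 289.1 kb at chr7:104218793-104507849 (GRCm38), together with Trim6, Trim5, Trim34b and Trim30c. All 10 genes of the block were called higher in Dicer KO in vehicle (25% of all genes), and 9 with LPS (28.8% of all genes), where Trim5 was lower (−0.48). With library totals all 10 were still higher in vehicle, but with LPS only 5 were called higher and Trim5 lower. LPS raised all 10 in control cells (38% of all genes) and 9 in Dicer KO cells (37.4% of all genes), where Trim5 fell by 0.39 on the log2 scale, and with library totals it raised 9 and 6. Trim30c, the neighbour of Trim30b and Trim30a, was higher in Dicer KO by 2.47 in vehicle and 2.55 with LPS. Trim5 holds the same 30 bases as Trim12a around its ISRE core (30 of 30 positions). Its exons share sequence with Trim12a and Trim12c, so its counts are uncertain too.

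**Figure D5:**
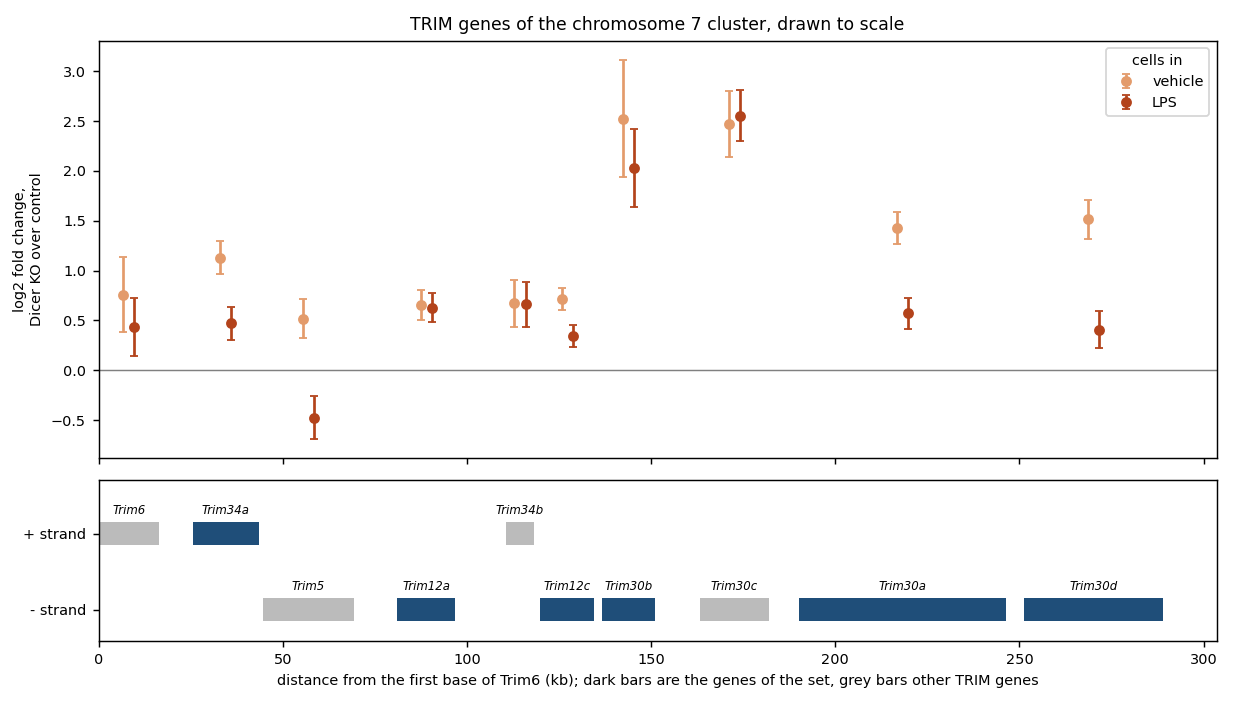
Log2 difference of Dicer KO against control in vehicle and with LPS for the 10 TRIM genes of the chromosome 7 block, in order along it, as kb from the start of Trim6. All values are above 0 but that of Trim5 with LPS.

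The other TRIM genes were called in both directions in every comparison. Of 61 in the files, 36 passed the filter, of which 10 were higher and 8 lower in Dicer KO in vehicle (median −0.02), and 8 higher and 16 lower with LPS (median −0.26). Over all genes 25% were higher and 21.2% lower in vehicle, and 28.8% and 27% with LPS. The LPS responses had 38% higher and 41.1% lower in control, and 37.4% and 42.7% in Dicer KO. By smallest adjusted p, the genes higher in Dicer KO both in vehicle and with LPS were Mid1, a microtubule-bound ligase (2.00 and 2.04), Trim30c and Pml, the core protein of nuclear bodies (1.31 and 1.05). They were joined by Trim56 in vehicle (0.49), which with LPS had 0.31 and turned to −0.041 with library totals, and by Trim34b with LPS (0.66), which was also higher in vehicle (0.67). Lower in vehicle were Trim46 (−1.87), Trim2 (−0.75), Trim3 (−0.28) and the corepressor Trim28 (−0.24), and lower with LPS were Trim24 (−1.26), Trim36 (−0.999), Trim8 (−0.80) and Trim28 (−0.56). LPS raised 13 and lowered 16 in control, with Trim13 (2.66), Trim36 (2.65), Mid1 (2.11) and Trim56 (1.58) up and Trim16 (−4.20), Trim47 (−3.01), Trim37 (−2.44) and Trim28 (−0.99) down. In Dicer KO it raised 14 and lowered 18, with Trim30c (3.57), Trim13 (2.49), Mid1 (2.14) and Trim56 (1.41) up and Trim16 (−4.46), Trim47 (−4.10), Trim37 (−2.77) and Trim28 (−1.31) down. The LPS responses differed for 13 of the 36, 3 larger in Dicer KO (Trim17 at 1.33, Mefv at 0.85 and Trim23 at 0.33) and 10 smaller, of which Trim8 (−0.84), Trim36 (−1.08), Trim5 (−0.995) and Trim24 (−1.01) had the smallest adjusted p. Over all genes 33.7% were called in the interaction, 14.9% larger and 18.8% smaller in Dicer KO. The 3 larger responses of these TRIM genes lost their call under several alternatives. With library totals the splits of higher and lower were 7 and 16 by genotype in vehicle, 5 and 25 with LPS, 10 and 24 for LPS in control cells, 8 and 24 in Dicer KO cells, and 0 and 20 in the interaction.

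Genes of interferon signalling were called mostly higher. Of 19 tested, 12 were higher and 1 lower in Dicer KO in vehicle (median log2 0.38), where 25% of all genes were higher and 21.2% lower. With LPS 15 were higher and 2 lower (median 0.60), against 28.8% and 27% of all genes. The interferon factors Stat2 (1.96), Irf9 (0.65) and Irf7 (2.37) were higher in vehicle, as were the feedback inhibitors Usp18 (2.89) and Socs1 (2.96), whereas the interferon gamma receptor chain Ifngr1 was lower (−0.82). The same genes were higher with LPS, at 0.72 for Stat2, 0.78 for Irf9, 0.84 for Irf7, 1.20 for Usp18 and 1.12 for Socs1, and Ifngr1 was lower (−1.14). LPS raised 16 and lowered 2 in control (38% and 41.1% of all genes) and raised 17 and lowered 1 in Dicer KO (37.4% and 42.7%). For Irf9 the rise in Dicer KO (0.71) turned to −0.04 with library totals. The responses differed for 12 of the 19, 4 larger and 8 smaller in Dicer KO, against 14.9% and 18.8% of all genes. With library totals the splits of higher and lower were 12 and 3 by genotype in vehicle, 12 and 4 with LPS, and 2 and 10 in the interaction, where DESeq2 gave 6 and 6. Reads of Ifnb1, which encodes interferon beta, numbered 0, 0 and 0 in resting controls, 11, 3 and 5 in resting Dicer KO cells, 8, 7 and 5 in control LPS, and 27, 30 and 23 in Dicer KO LPS, and the medians were the same with Ifnb1 at a floor of 3 counts over the control vehicle group.

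Known partners of these TRIM proteins were also measured. Of 29 tested, 16 were higher and 2 lower in Dicer KO in vehicle (25% and 21.2% of all genes), and 22 higher and 3 lower with LPS (28.8% and 27%). Ddx58, the RIG-I sensor that Trim25 modifies, was higher by 1.94 in vehicle and 0.70 with LPS. Isg15 was higher by 3.10 and 0.90, and so were the enzymes of ISG15 transfer Uba7 (1.06 and 0.56), Ube2l6 (1.57 and 0.49, the latter not called with library totals) and Herc6 (2.48 and 0.90). Trim25 itself, with −0.04 in vehicle, was not called there. Mavs, the adaptor that Trim14 binds, was −0.19 in vehicle (not called, adjusted p = 0.056, edgeR) and lower with LPS (−0.48), whereas Cgas was higher in both (1.36 and 0.87). Usp14, the deubiquitinase of the Trim14 and cGAS complex, had 0.03 in vehicle (not called) and was lower with LPS (−0.63). Of the adaptors that Trim30a acts on, Tab2 had 0.00 in vehicle (not called) and was higher with LPS (0.67). Tab3 was higher in vehicle (0.42) and with LPS (0.31), where it turned to −0.043 with library totals. LPS raised 23 and lowered 2 of the partners in either genotype. Of all genes 38% were called higher and 41.1% lower in control, and 37.4% and 42.7% in Dicer KO. The responses differed for 19 of the 29, 8 larger and 11 smaller in Dicer KO, against 14.9% and 18.8% of all genes. With library totals the splits of higher and lower were 11 and 5 by genotype in vehicle, 14 and 7 with LPS, 17 and 7 for LPS in control cells, 16 and 9 in Dicer KO cells, and 5 and 15 in the interaction, where DESeq2 gave 9 and 9.

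The search for similar patterns left out genes without a symbol or with a provisional one (such as Gm or Rik). It covered 11745 genes outside the set. Log2 levels were centred for each gene over the 4 group means of the 12 libraries. For each TRIM gene the gene with the most similar pattern was the one with the smallest root mean square difference. For Trim25 it was the interferon factor Irf5 (0.0243), at 225 ± 0.692 CPM in resting control, 228 ± 6.48 in Dicer KO vehicle, 206 ± 10.8 in control LPS and 403 ± 7.99 in Dicer KO LPS. For Trim30a it was the nuclear body gene Sp110 (0.0234), for Trim34a the interferon-induced surface protein gene Ly6e (0.0606), for Trim30b its neighbour Trim30c (0.234) and for Trim30d Timeless (0.0766). For the others it was Arid3a (Trim12a, 0.00834), Cpsf2 (Trim12c, 0.0410), Zfp568 (Trim14, 0.0634), Slc7a11 (Trim21, 0.0449) and Lipe (Trim26, 0.0247). With 4 group means such likeness is easily met, and it is a description. Within the set the closest pairs were Trim30a with Trim30d (0.0848), Trim14 with Trim34a (0.115) and Trim12a with Trim12c (0.133), and Trim25 was at least 0.382 from every other.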

How the data were processed

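The deposited files hold, per library, whole-number read counts per Ensembl gene made by the authors. Per the submitters' processing notes STAR 2.5 and DESeq2 (no version) were used with builds mm10 and GRCm38.p5, and per the labels' protocols the mRNA kit was stranded. Which program counted, with which strand setting and annotation release, is not given in the sources used here. Of 46078 identifiers, 45229 matched GENCODE M21, which gave symbols and coordinates. Reads assigned to genes were 41.7 to 43.3% of each library, and the rest (no gene, ambiguous or not unique) stayed out of library sizes.

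Counts of all 12 libraries were fitted with edgeR 4.0.16 in R 4.3.3 (filterByExpr, TMM factors of 0.707 to 1.309, robust quasi-likelihood, 1 mean per group, 8 residual degrees of freedom). The biological coefficient of variation was 6.30%. Tests were two-sided with Benjamini-Hochberg adjustment over 13837 genes in each of 5 comparisons, with calls made below an adjusted p of 0.05. The script was tested on simulated data. CPM are scaled by TMM and printed as mean ± SD (n = 3), and log2 differences with the model's SE. Each TMM fold change is relative to the typical gene. The 10 genes and the gene lists (other TRIM genes, interferon signalling, TRIM partners, cell type markers) were chosen with earlier results of these data known. All 10 genes are named, with up to 4 called other TRIM genes of smallest adjusted p per direction, any gene of the other lists (some are not reported here), and the most similar gene of each (prior count of 2). Coro2a, Anp32b and the genes overlapping Trim14 were picked by position. Replicate numbers were not used to pair the libraries in the main fit. Of 18 same-numbered pairs, 4 had correlated deviations over 0.1 (−0.232 to 0.182). With groups of 3 this cannot decide whether same-numbered libraries shared an origin. Alternatives were DESeq2 1.42.0, RLE factors, library totals, no filter, at least 1 CPM in 3 libraries, only the compared groups, the replicate number as a block, and leaving out each library or both that stood apart.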

Additional observations from a re-analysis of the deposited data

Results flagged for a closer look

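The LPS response differed between the genotypes, by the interaction test of edgeR adjusted over all genes, for the following named genes, given as log2 response in Dicer KO minus that in control. Among the 10 TRIM genes these were Trim25 (1.04), Trim12c (−0.37), Trim14 (−0.39), Trim34a (−0.66), Trim30a (−0.86) and Trim30d (−1.11). Of 13 other TRIM genes called, those named by smallest adjusted p were Trim17 (1.33), Mefv (0.85), Trim23 (0.33), Trim8 (−0.84), Trim5 (−0.995), Trim24 (−1.01) and Trim36 (−1.08). Among the signalling and partner genes named, the response was larger in Dicer KO for Tmem173 (0.97), Irf5 (0.95) and Tab2 (0.67), and smaller for Cgas (−0.49), Uba7 (−0.50), Usp14 (−0.66), Ube2l6 (−1.09), Stat2 (−1.24), Ddx58 (−1.25), Irf7 (−1.53), Herc6 (−1.59), Usp18 (−1.69), Socs1 (−1.84) and Isg15 (−2.21). Ifnb1 is not listed, since its counts in control vehicle are all 0 and its fitted value is no bound. Not all called genes of these 2 lists are named. In full, 4 signalling genes were larger and 8 smaller in Dicer KO, and 8 partners were larger and 11 smaller. Over all genes 33.7% were called in this test. Adjusted p was closest to the threshold for Trim17 (0.0404), Trim23 (0.0342), Mefv (0.0237) and Cgas (0.0224), whose calls were lost under several of the alternatives.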

How the results depend on the processing

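Of 990 values of the 10 TRIM genes under alternatives, 966 kept their direction and side of the threshold. With direction kept, 4 lost and 10 gained a call, and another 10 turned sign. Among those that turned, Trim12c by genotype with LPS and Trim14 and Trim34a for LPS in Dicer KO also lost their call with library totals (adjusted p = 0.906, 0.14 and 0.277, edgeR). Of 396 counts of called genes 394 stayed within 1.5 times the main count. The exceptions were with library totals, where called TRIM genes in the LPS response of Dicer KO went from 10 to 6, and other TRIM genes in the interaction from 13 to 20. Library totals moved the median of all genes to −0.118, −0.378, −0.577, −0.848 and −0.269 in the 5 comparisons, and their calls to 2229 higher and 4577 lower (3459 and 2935 with TMM) by genotype in vehicle, 1885 and 7626 (3983 and 3741) with LPS, 3066 and 8737 (5258 and 5690) for LPS in control, 2637 and 9623 (5173 and 5905) in Dicer KO, and 997 and 5136 (2067 and 2602) in the interaction. Signs turned with library totals for Trim12c by genotype with LPS (−0.0073), Trim14 (−0.090) and Trim34a (−0.086) for LPS in Dicer KO, Trim26 in the interaction (−0.12) Irf9 (−0.043) and Tab3 (−0.25) for LPS in Dicer KO, and Tab3 (−0.043) and Trim56 (−0.041) by genotype with LPS. Trim25 by genotype in vehicle turned without control vehicle replicate 1 (0.03) or Dicer KO vehicle replicate 2 (0.046), and over all libraries left out it ran from −0.14 to 0.046. Trim12a in the interaction turned with DESeq2 (0.024), RLE factors (0.023), without control LPS replicate 3 (0.03) and without Dicer KO vehicle replicate 1 (0.043), with a range of −0.099 to 0.043 over the libraries left out. The cause was not tested. Leaving out each library in turn gave 9 to 9 and 10 to 10 called TRIM genes by genotype in vehicle and LPS, 9 to 10 and 10 to 10 for LPS in control and Dicer KO, and 6 to 8 in the interaction. With the replicate number as a block the counts were 9, 10, 9, 10 and 6, as without it. For 6 of 12 libraries the mean correlation with the deviations of other groups was highest for libraries of their own number. Depth limits genes of few counts, such as Trim30b and Ifnb1 in control vehicle.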
